A study of Mus musculus with 6 samples.

Results

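The mitochondrial respiratory chain passes electrons from NADH and succinate to oxygen and uses the proton gradient so made to form ATP. Complexes I to IV are the electron carriers and complex V is ATP synthase. Most of their subunits are encoded in the nucleus and imported. The subunits of a complex are needed in fixed ratios, and hepatocytes, which oxidise fatty acids to power gluconeogenesis and urea synthesis during fasting, rely heavily on the pathway. The 80 genes described here, of 19764 in the deposited table, were chosen by symbol alone: the nuclear Nduf genes of complex I, Sdh of complex II, Uqcr of complex III, Cox5 to Cox8 of complex IV and Atp5 of complex V. They comprise 36, 4, 8, 16 and 16 genes of complexes I to V, and 75 of the 80 had enough reads to be tested.

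The data are RNA levels in primary hepatocytes from Bl6/N mice, 3 Control and 3 TNF libraries. All 6 cultures were kept for 16 h in starvation medium with 5 mM glucose and then received 1 µM corticosterone, which activates the glucocorticoid receptor, and 10 µM WY-14643, which activates the fatty acid sensor PPARα, for 8 h. Control cells received vehicle with these agents and TNF cells received TNF, an inflammatory cytokine, at 1 ng/ml. The comparison asks what TNF changes in hepatocytes already in a fasting-like hormonal state, so the Control group is not an untreated one. The labels do not state the age or sex of the mice or whether replicates came from separate animals, so p-values measure only the spread between these samples, which may be technical.

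Levels are CPM, reads of a gene per 1000000 counted reads. Changes are TNF minus Control on the log2(CPM + 1) scale, on which low genes show less than their full change. Each change was tested with limma across 12293 genes, first without regard to the replicate numbers (unpaired) and then with the replicate number as a block (blocked), because same-numbered Control and TNF libraries deviated together. The unpaired fit was the planned main test and the blocked fit its alternative. "Fell" is used of genes with a Benjamini-Hochberg adjusted p under 0.05 in the blocked limma fit. The 6 libraries held 17612060 to 25114289 reads. In the TNF libraries 6 of 6 known TNF response genes rose, among them Icam1, an adhesion molecule, from 44.7 ± 7.81 to 173 ± 24.2 CPM (SD, n = 3). Hepatocyte markers summed to 45529 to 64651 CPM in Control and 44714 to 61087 CPM in TNF, most of it albumin (Alb). Of these 12 markers 11 had a log2 change below 0, with a median of -0.15, and 6 fell in the blocked limma fit, where 11.2% of all tested genes were lower. They include Cps1 of the urea cycle (log2 -1.43, adjusted p 2.71e-11 blocked and 0.204 unpaired, limma) and Hnf4a, a hepatocyte transcription factor (log2 -0.43, adjusted p 3.06e-07 blocked and 0.177 unpaired, limma). Macrophage markers summed to 144 to 232 and 147 to 234 CPM, nearly all of it Cd68, and the 11 others, Adgre1, Clec4f and Csf1r among them, had too few reads to be tested. Endothelial markers summed to 100.3 to 189 and 118 to 198 CPM, with Stab1 higher (log2 0.87, adjusted p 1.96e-05 blocked and 0.375 unpaired, limma) and Stab2 lower (log2 -0.19, adjusted p 0.0342 blocked, limma). Stellate markers summed to 18.3 to 67.5 and 19.3 to 45.1 CPM, with Reln lower (log2 -0.38, adjusted p 0.0284 blocked and 0.988 unpaired, limma). Cholangiocyte markers summed to 37.9 to 46.7 and 42.2 to 63.9 CPM. Of these Sox9 was higher (log2 0.58, adjusted p 6.87e-05 blocked and 0.211 unpaired, limma) and Pkhd1 lower (log2 -0.31, adjusted p 0.0216 blocked, limma). Lymphocyte and neutrophil markers stayed between 0.144 and 0.663 CPM in all, with Cd3g, Nkg7, Ly6g and Mpo at 0 reads. The part of other cells, or of the lower hepatocyte markers, in the results below was not tested, and in bulk RNA fewer cells of a type and less RNA per cell cannot be told apart.

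Respiratory chain genes were slightly lower with TNF in every complex, by a few percent, and no member rose. The median log2 change of the 75 tested members was -0.07, or -4.58%, against -0.01 over all 12293 tested genes. The change was below 0 for 70 of 75 members, where 53.9% of all tested genes were below 0. In the unpaired fit without the library TNF 3 the members' median was -0.02, against -0.01 over all tested genes, and 48 of 75 members were below 0. Without Control 3 instead, the members' median was -0.10 and 69 of 75 were below 0. By complex the medians were -0.07 for I, -0.10 for II, -0.06 for III, -0.06 for IV and -0.07 for V, with 33 of 36, 4 of 4, 8 of 8, 10 of 11 and 15 of 16 tested members below 0. The differences between the complexes were not tested.

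The unpaired limma fit called none of the 75 members, against 0.358% of all genes higher and 0.0732% lower, and none had an unadjusted p under 0.05 (8.75% of all genes). The variant limma-voom, run on whole reads, also called none and gave 1 member an unadjusted p under 0.05. In the blocked limma fit 11 members fell and 0 rose, against 11.2% of all tested genes lower and 9.4% higher. At 11 of 75, the share of members that fell is near the share of all genes that did. With the block 26 of 75 had an unadjusted p under 0.05, against 31.7% of all genes. By symbol the 11 are 6 genes of complex I, 3 of II, 1 of III, 1 of IV and none of V. Without replicate 2 the blocked limma fit called 0 members, with a median change of -0.08 and 22 members at an unadjusted p under 0.05. Without replicate 3 it called 4. Both of these fits used fewer libraries, and the share of all genes they called was not counted. A loss of calls particular to the members can therefore not be told from a general one.

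**Figure D1:**
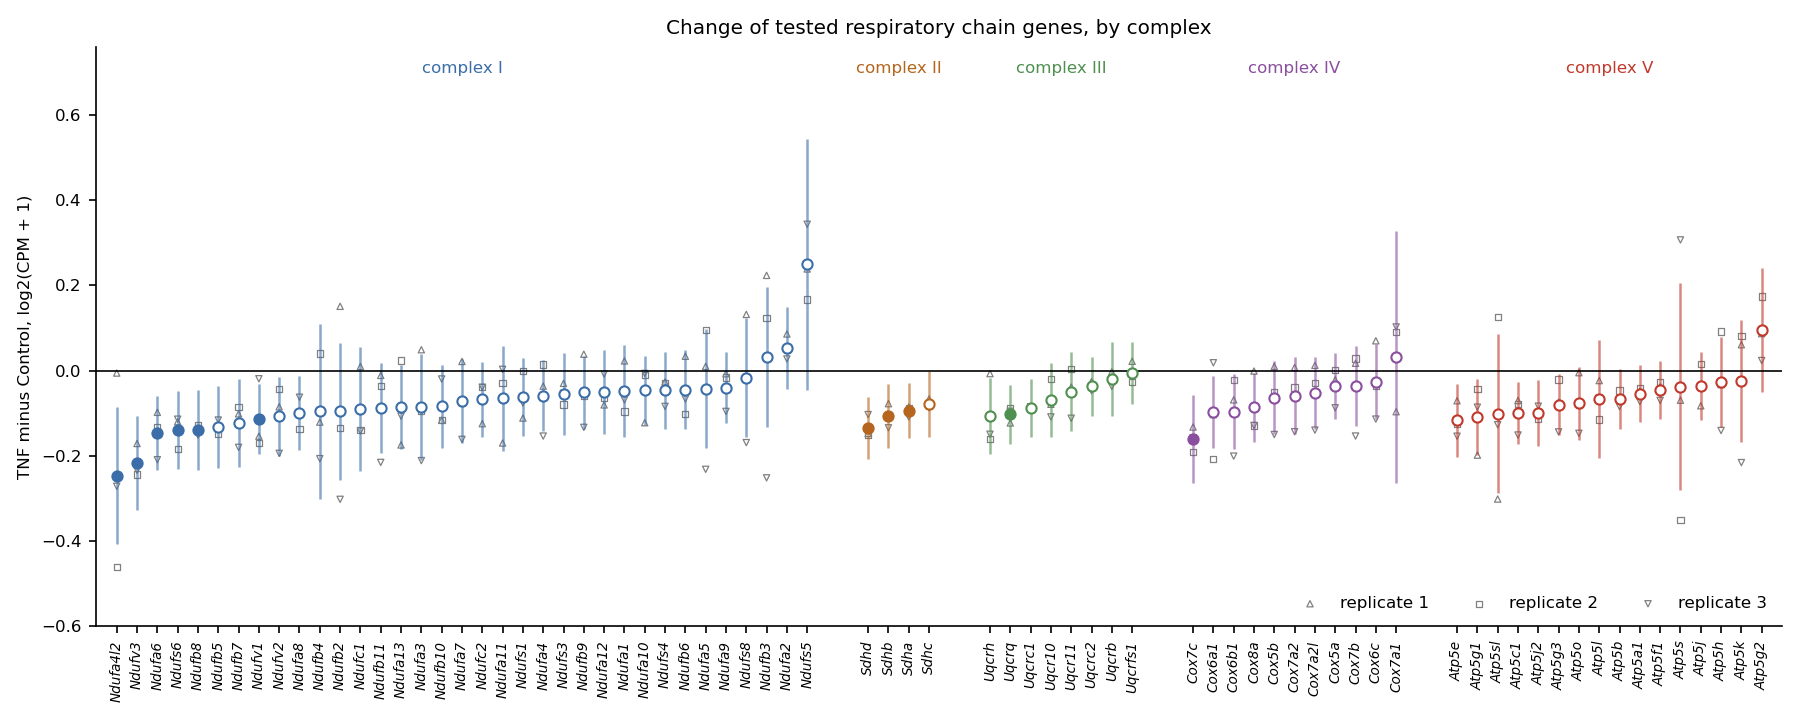
Log2 change (TNF minus Control, log2(CPM + 1) scale, vertical axis) of the tested members, all but 1 of the 75, ordered within complexes I to V. Large circles are means over the 3 replicates, filled where the blocked adjusted p is under 0.05, bars are 95% intervals of the blocked fit and small grey symbols are the differences within each replicate number. Most circles lie below 0, as do 70 of all 75 members, and all lie between -0.25 and 0.25.

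The changes were small and alike. The interquartile range of the 75 log2 changes was 0.05, from -0.10 to -0.04, and that of all tested genes was 0.18. Members were also more abundant than the typical tested gene, at a median of 77.6 CPM in Control against 31.3 CPM. The unpaired 95% interval of the change, not adjusted for the number of genes, lay within 1.5-fold either way for 73 of 75 members, against 72.7% of all genes. Both exceptions, Ndufa4l2 and Ndufs5, belong to complex I by symbol. In the blocked fit the interval lay within 1.5-fold for all 75 members (93.1% of all genes) and within 1.2-fold for 67 (51.7% of all genes).

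**Figure D2:**
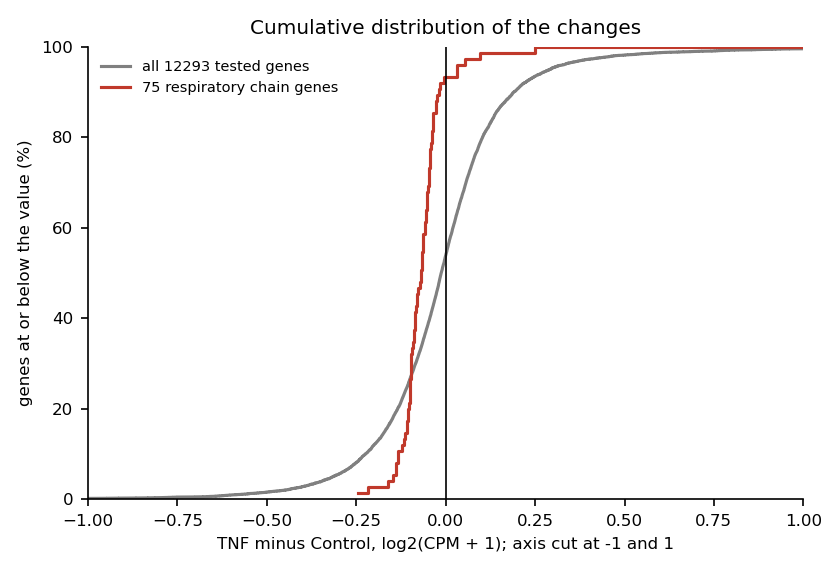
Cumulative share of genes (vertical axis, percent) at or below each log2 change (horizontal axis, TNF minus Control, cut at -1 and 1) for the 75 tested respiratory chain genes and all 12293 tested genes. The curve of the members is steep and crosses 50% at -0.07, and that of all genes is flatter and crosses 50% at -0.01.

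Summed over its members, each complex was lower with TNF within each of the 3 replicate numbers, while the groups themselves overlapped. The 36 complex I genes summed to 2382, 2446 and 2320 CPM in Control 1 to 3 and to 2296, 2324 and 2143 CPM in TNF 1 to 3, a difference of -3.59%, -4.96% and -7.64% within the numbers. Complex II summed to 794, 772 and 698 CPM in Control and 744, 719 and 647 CPM in TNF. This complex had the largest relative difference of the 5, -6.82% between the group means. Complex III went from 1055 ± 38.4 to 1010.3 ± 45.1 CPM, complex IV from 1196 ± 35.0 to 1139.9 ± 59.5 CPM and complex V from 3407 ± 221 to 3257 ± 258 CPM (SD, n = 3). For complexes III, IV and V the group means differed by -4.24%, -4.72% and -4.39%. All members together summed to 8795 ± 395 CPM in Control and 8365 ± 505 CPM in TNF, so the difference of group means was of the size of the spread between libraries. For a summed score of the members no test was made.

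For most members the libraries of replicate 3 stood further from the others than TNF did from Control. In replicate 3 the members were lower than in replicates 1 and 2 at the median, with a log2 difference of -0.11, and were lower in 61 of 75 cases, averaged over Control and TNF. Over all tested genes that median was -0.02, and 53.7% were lower in replicate 3. For 51 of 75 members the difference of replicate 3 from the others was larger in size than the change with TNF. The share of all tested genes for which this holds was not counted, so it is not shown to be a trait of the members. Within the replicate numbers the members' median change with TNF was -0.05, -0.05 and -0.11, with 55, 59 and 68 of 75 below 0. The labels name no day or animal for the numbers.

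**Figure D3:**
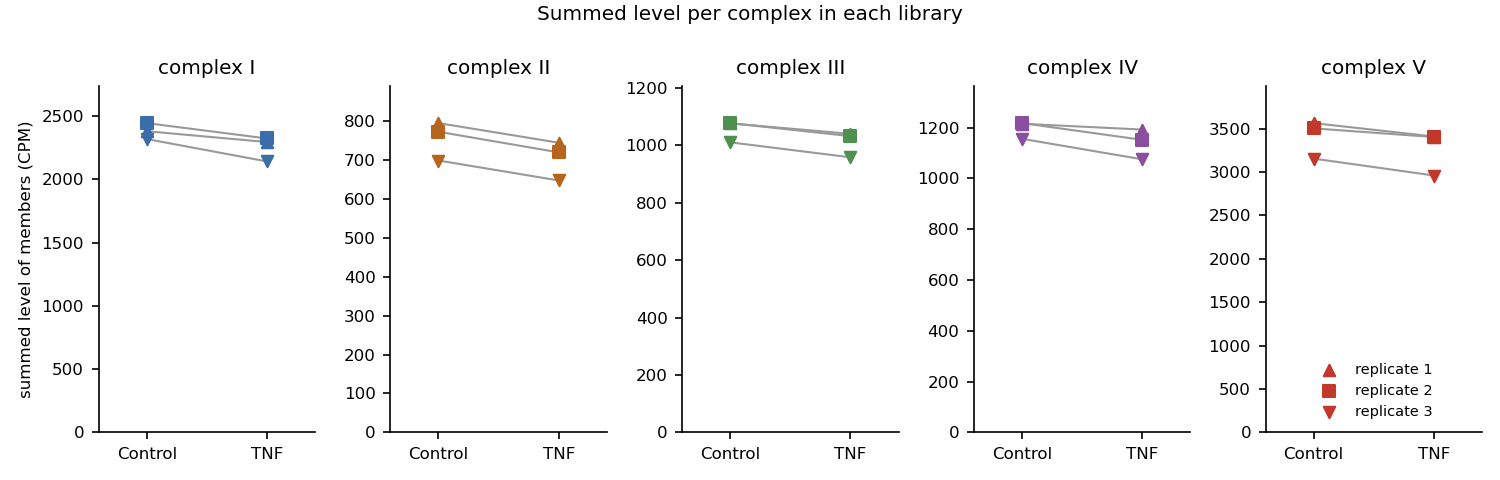
Summed level of the members of each complex (CPM, vertical axes from 0) in the 3 Control and 3 TNF libraries, with same-numbered libraries joined by a line. Each line slopes down, by changes of -1.89% to -7.64%, and replicate 3 lies lowest in both groups in each of the 5 complexes.

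In 9 of the 75 members all TNF libraries lay below all Control libraries, against 6.66% of all tested genes, and in 0 they lay above (6.59%). These were Ndufv3, Ndufa6, Ndufs6, Ndufa8, Uqcrh, Cox7c, Cox6b1, Atp5e and Atp5l. Members lower within each of the 3 replicate numbers were 43 (27.7% of all genes), and 3 were higher within each, Ndufa2, Ndufs5 and Atp5g2 (23.4%).

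Complex I, the entry point for electrons from NADH, has a catalytic core of proteins kept from bacteria and a shell of accessory subunits that assemble and stabilise it. The 6 core genes measured had a median change of -0.06 and the 30 others by symbol of -0.08. Those 30 include Ndufa4, which later work places in complex IV, its paralog Ndufa4l2, and Ndufs5, counted over only a short stretch. Ndufs7 was not analysed here. Of the core genes Ndufv1, whose protein binds NADH and the flavin, fell. It stood at 146, 153 and 135 CPM in Control 1 to 3 and at 131, 136 and 133 CPM in TNF 1 to 3. Replicate 3 barely differed (log2 -0.02) and the groups overlapped narrowly. Its log2 change was -0.11 (blocked SE 0.04, adjusted p 0.0488 blocked and 0.807 unpaired, limma), and 4 of 11 other settings of the blocked fit kept it under 0.05.

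Among accessory subunits Ndufv3, which sits at the NADH-oxidising tip of the enzyme, had the lowest adjusted p of any member. Its level was 38.1, 44.2 and 44.9 CPM in Control and 33.7, 37.2 and 38.0 CPM in TNF, so the groups did not overlap. The log2 change was -0.22 (SE 0.09 unpaired, 0.05 blocked), with a limma adjusted p of 0.00792 blocked and 0.584 unpaired. Ndufv3 passed in 10 of 11 alternatives with the block, the exception being without replicate 2 (0.0534). It lies on chromosome 17 (mm10, 31520115 to 31531325) and was counted over its whole span, introns included.

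Ndufa6, an accessory subunit of the matrix arm, was at 82.6, 90.5 and 90.5 CPM in Control and 77.1, 82.4 and 78.2 CPM in TNF, again without overlap. Its log2 change was -0.15 (blocked limma adjusted p 0.0179). Ndufs6, a zinc-binding subunit added late in assembly, went from 69.9, 68.6 and 65.8 CPM to 64.2, 60.3 and 60.7 CPM (log2 -0.14, adjusted p 0.0314 blocked, limma). A near-identical copy of its transcript is annotated as a pseudogene, so reads may be shared. Ndufb8, of the membrane arm, went from 62.4, 58.9 and 56.6 CPM to 56.7, 53.9 and 50.9 CPM (log2 -0.14, adjusted p 0.0377 blocked, limma), where TNF 1 lay just above the lowest Control library. In the unpaired limma fit the adjusted p of these 3 was 0.627, 0.630 and 0.742. Without replicate 2 or without replicate 3 none of the 3 passed. Ndufs6 and Ndufb8 were also lost without replicate 1 and with no filter, and Ndufb8 with median-of-ratios scaling, so that of 11 other settings 9 kept Ndufa6, 7 kept Ndufs6 and 6 kept Ndufb8.

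Ndufa4l2 stood apart from all other members in its spread. It encodes a paralog of Ndufa4 known as a hypoxia-inducible protein. It was at 12.2, 57.1 and 60.3 CPM in Control and 12.2, 41.2 and 49.8 CPM in TNF. Replicate 1 was low in both groups, and replicates 2 and 3 averaged 4.28-fold higher than replicate 1. In replicate 1 the change with TNF was -0.01, and in replicates 2 and 3 it was -0.46 and -0.27. The mean change of -0.25 had an unpaired SE of 0.70 and a 95% interval from -1.89 to 1.4, so this fit says little of its direction. In the blocked fit its SE was 0.08, although the changes within the 3 numbers had an SD of 0.23, and its adjusted p of 0.0322 (limma) rests on the variance shared between genes. The call was lost without replicate 2, without replicate 3 and with no filter, at an adjusted p of up to 0.339 (limma). Ndufa4l2 overlaps the gene Shmt2 and was counted over 2184 of its 2218 bases. Its paralog Ndufa4, which later work places in complex IV, was at 150.4, 147 and 139 CPM in Control and 147, 149 and 124.5 CPM in TNF (log2 -0.06), with overlapping groups.

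The remaining complex I genes ranged from -0.13 for Ndufb5 (adjusted p 0.0508 blocked, limma) to 0.05 for Ndufa2, apart from Ndufs5. Ndufs5 had the highest value of all members, a log2 change of 0.25 (adjusted p 0.237 blocked and 0.897 unpaired, limma), but reads were counted over only 25 of its 5477 bases. The reads numbered 20, 17 and 14 in the Control libraries, and 31, 17 and 23 with TNF. These values therefore describe a short stretch and not the gene. Ndufs1 was counted over 18527 of 33231 bases, and 12 of the 80 members in all were counted over less than their span.

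Complex II is the succinate dehydrogenase of the tricarboxylic acid cycle, made only of nuclear-encoded subunits. Of its 4 genes 3 fell, Sdha, Sdhb and Sdhd, and all 4 were lower with TNF within each replicate number, against 11.2% and 27.7% of all tested genes. Sdhd, a membrane anchor, was at 165, 144 and 138 CPM in Control and 149, 129.7 and 129 CPM in TNF. Replicate 1 was highest in both groups and the groups overlapped. Its log2 change was -0.13 (SE 0.09 unpaired, 0.03 blocked; adjusted p 0.0115 blocked and 0.876 unpaired, limma), and it passed in 10 of 11 alternatives with the block, not without replicate 2 (0.0569).

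Sdha, the flavoprotein that oxidises succinate, was at 386, 382 and 346 CPM in Control and 364, 359 and 320.4 CPM in TNF. Its changes within the numbers were -0.09, -0.09 and -0.11, with a blocked adjusted p of 0.0415 (limma). Sdhb, the iron-sulfur subunit, was at 130.2, 136 and 120.4 CPM and at 123, 126 and 109.6 CPM, with changes of -0.08, -0.11 and -0.13 and a blocked adjusted p of 0.0459 (limma). Both were past the threshold in 5 of 11 alternatives with the block, and in none that left out a replicate number. Sdhc, the other membrane anchor, had a log2 change of -0.08 and a blocked adjusted p of 0.15 (limma). In the unpaired limma fit the adjusted p of the 4 genes lay between 0.876 and 0.983.

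Complex III hands electrons from ubiquinol to cytochrome c. Of its 8 genes Uqcrq, a small membrane subunit, fell. It was at 174, 192 and 187 CPM in Control and 159, 180.1 and 175 CPM in TNF, lower within each number with overlapping groups. The log2 change was -0.10 (adjusted p 0.0377 blocked and 0.891 unpaired, limma), past the threshold in 5 of 11 alternatives with the block. Uqcrh, the acidic hinge protein, was at 92.6, 103 and 96.3 CPM and at 92.1, 91.8 and 86.7 CPM (log2 -0.11, adjusted p 0.0911 blocked, limma). Its groups did not overlap, and most of the difference came from replicates 2 and 3. Uqcrc1 and Uqcrc2, the large matrix-facing subunits, had log2 changes of -0.09 and -0.04. Uqcrfs1, the Rieske iron-sulfur protein that carries the electron, was at 146.7, 153 and 139 CPM and at 149, 150 and 138 CPM, with a log2 change of -0.01 and a blocked 95% interval from -0.08 to 0.07.

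Complex IV, cytochrome c oxidase, reduces oxygen. Its catalytic subunits come from mitochondrial DNA, and the nuclear subunits measured here surround them, some in tissue-specific versions. Of 11 tested genes Cox7c, a small membrane subunit, fell. Its level was 45.7, 49.7 and 49.9 CPM in Control and 41.6, 43.4 and 44.7 CPM in TNF, without overlap. The log2 change was -0.16 (SE 0.07 unpaired, 0.05 blocked; adjusted p 0.0286 blocked and 0.625 unpaired, limma), and it was not past the threshold without replicate 2, without replicate 3 or with no filter. Its transcript has a near-identical copy annotated as a pseudogene, with which reads may be shared.

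Cox6a1 was the most abundant complex IV gene per length, at 81.9 CPM per counted kilobase in Control. It was at 283, 280.4 and 248 CPM in Control and 264, 243 and 251 CPM in TNF, lower in replicates 1 and 2 and not in replicate 3 (log2 -0.10, adjusted p 0.104 blocked, limma). The other 9 tested genes lay between -0.10 for Cox6b1 and 0.03 for Cox7a1. Cox7a2l, a factor that joins complexes III and IV and is no regular subunit, had a log2 change of -0.05.

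Isoforms of other tissues were nearly silent. Cox6a2 and Cox8b, known from heart and muscle, had few reads. Cox6a2 gave 1, 8 and 1 in the Control libraries and 1, 8 and 3 with TNF, and Cox8b gave 1 read, in TNF 3. Of the forms known from testis, Cox6b2 gave 8, 6 and 7 reads without TNF and 7, 2 and 6 with it, Cox7b2 had 1 read each in Control 1 and Control 2, and Cox8c had none. A count of 0 allows a level of up to 0.124 to 0.166 CPM in these libraries, for counting error only. These 5 genes were not tested. Cox7a1, the heart and muscle form of Cox7a2, was at 0.745 to 1.22 CPM in Control and 0.814 to 1.38 CPM in TNF, against 77.2 to 90.9 and 73.0 to 88.4 CPM for Cox7a2.

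**Figure D4:**
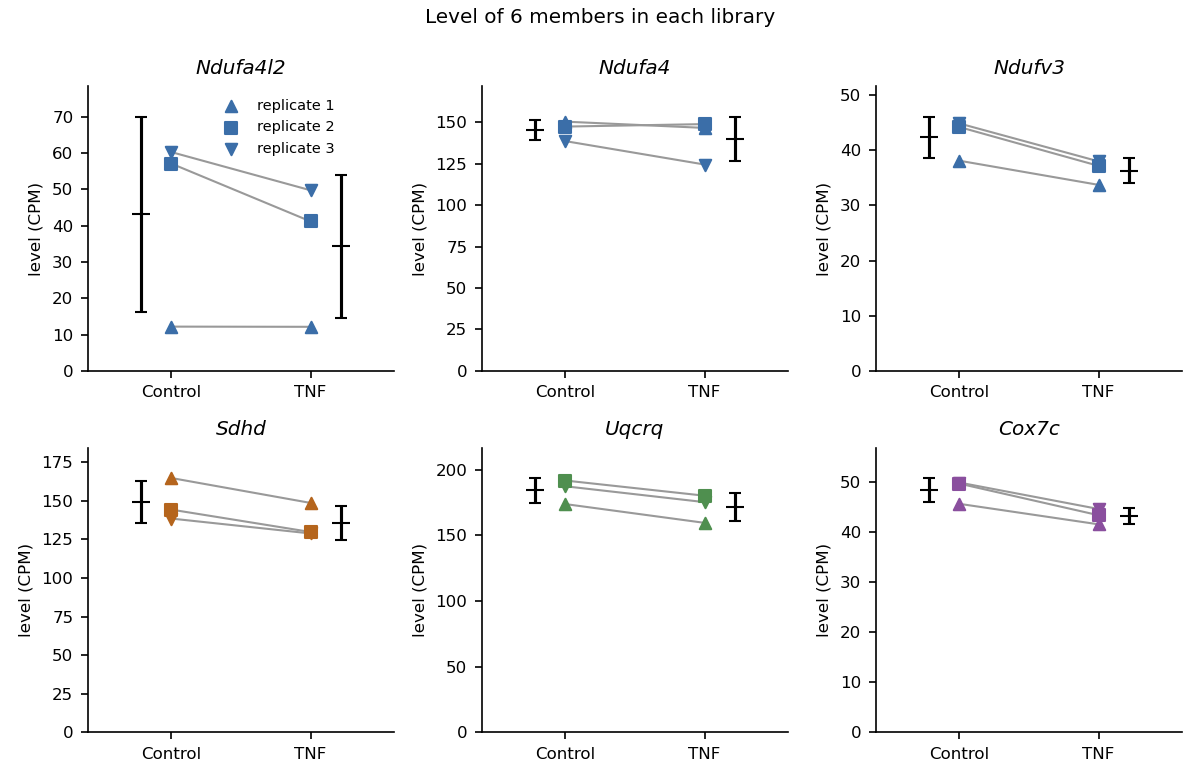
Level (CPM, vertical axes from 0) of 6 members in each Control and TNF library; symbols give the replicate number, lines join same-numbered libraries and black bars are mean ± SD of 3 libraries. Ndufa4l2 is near 12.2 CPM in replicate 1 of both groups, its paralog Ndufa4 is not, and Ndufv3, Sdhd, Uqcrq and Cox7c are lower with TNF in each number.

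Complex V, ATP synthase, joins a catalytic F1 head through a stalk to a membrane ring that turns with the proton flow. It held the most abundant members and no gene that fell. Atp5b, the catalytic β subunit, was at 1286, 1268 and 1104 CPM in Control and 1226, 1228 and 1042 CPM in TNF, or 174 CPM per counted kilobase in Control. The log2 change was -0.07 (adjusted p 0.181 blocked and 0.995 unpaired, limma), and the blocked 95% interval ran from -0.14 to 0.004. Replicate 3 was low in both groups. Atp5a1, the α subunit, had a log2 change of -0.05. The 4 head genes measured (Atp5a1, Atp5b, Atp5c1 and Atp5e) had a median change of -0.08 and the 4 genes of the peripheral stalk (Atp5f1, Atp5h, Atp5j and Atp5o) of -0.04; this difference was not tested.

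Atp5e encodes the small ε subunit of the rotor. It was at 80.9, 84.8 and 84.7 CPM in Control and 77.0, 77.6 and 76.1 CPM in TNF, without overlap, with a log2 change of -0.12 and an adjusted p of 0.0521 (blocked limma). The γ subunit gene Atp5c1 (log2 -0.10) stood at 0.0501. Atp5g1, Atp5g2 and Atp5g3 encode the same mature ring subunit behind different import sequences, and their values differed in sign. Atp5g3 was the most abundant of the 3, at 300.3, 277 and 255 CPM in Control and 285, 273 and 231 CPM in TNF (log2 -0.08). Atp5g1 was at 100.3, 99.4 and 83.1 CPM in Control and 87.3, 96.5 and 78.3 CPM in TNF, with overlapping groups (log2 -0.11, adjusted p 0.0803 blocked, limma). Atp5g2 was at 20.2, 23.3 and 21.3 CPM and at 21.5, 26.5 and 21.6 CPM, higher with TNF within each number but with overlapping groups (log2 0.09, adjusted p 0.374 blocked, limma). Atp5g1 and Atp5g2 have near-identical transcripts elsewhere. Atp5s and Atp5sl match the symbol rule but are not subunits of ATP synthase, and their log2 changes were -0.04 and -0.10.

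Several members share sequence with other annotated genes. In GENCODE release 21 transcripts of 14 of the 80 members matched another gene over at least 50% of their length at 95% identity or more, most of them pseudogenes, with 9 such genes for Atp5l, 4 for Atp5h and 3 for Uqcrb. The median change was -0.05 in these 14 and -0.07 in the 61 other tested members.

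Promoters of this pathway are known to bind NRF1, a factor of mitochondrial gene control, so its consensus was looked for upstream of the members. A RefSeq start (build GRCm38.p6, the same coordinates as mm10) was found for 64 of the 75 tested members. In the 250 bases before it, on either strand, the exact NRF1 consensus was present in 4 of 64 (6.25%) against 1.67% of 9903 tested genes. The looser NRF1 consensus, with any base at its sixth place and so including the exact one, was present in 12 of 64 (18.8%) against 8.35%. CCGGAAG, the core of the ETS factor GABP, was present in 17.2% and 14.2%, and GCCAT, the core of YY1, in 29.7% and 28.7%. Such matches are letters and not binding sites. The 3 stretches below are among those of the exact consensus, or of the looser one in a gene that fell, that lie outside annotated exons. Capitals mark the match, and each stretch reads 5′ to 3′ on the strand of its gene. These 3 may not be all such stretches. They lie at chr5:115349086-115349129 for Cox6a1 (minus strand), chr17:56717686-56717736 for Ndufa11 (plus strand) and chr13:74350281-74350308 for Sdha (minus strand).
Cox6a1: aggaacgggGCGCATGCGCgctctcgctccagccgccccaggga
Ndufa11: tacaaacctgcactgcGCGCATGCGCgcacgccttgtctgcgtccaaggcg
Sdha: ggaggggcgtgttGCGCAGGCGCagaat
Of these genes Sdha fell, and Cox6a1 (log2 -0.10) and Ndufa11 (log2 -0.07) did not pass either fit. The gene for NRF1 itself, Nrf1, was at 52.9 ± 3.15 CPM in Control and 53.0 ± 3.70 CPM in TNF (SD, n = 3; log2 0.003), and Gabpa at 73.0 ± 5.59 and 73.7 ± 3.78 CPM. Neither gene passed in either limma fit.

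Subunits that the symbol rule leaves out behaved within the same range. Of 8, Cyc1, the cytochrome of complex III, fell from 194 ± 16.9 to 181.5 ± 16.0 CPM (log2 -0.10, adjusted p 0.0443 blocked and 0.950 unpaired, limma), and the list median was -0.08. Cox4i1, a further complex IV subunit, was at 405 ± 17.8 and 384 ± 25.5 CPM (log2 -0.08), and Cycs, cytochrome c, at 66.6 ± 7.34 and 67.2 ± 5.58 CPM (log2 0.02). The 13 subunits encoded by mitochondrial DNA were not analysed here.

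Of the genes listed as building, feeding and regulating the chain, none passed the unpaired limma fit. Their counts in the blocked fit stand against 11.2% of all tested genes lower and 9.4% higher. Of 44 tested assembly factors 3 fell and none rose with the block (median log2 -0.04). They were Bcs1l, which inserts the Rieske protein (log2 -0.31, adjusted p 0.0148 blocked, limma), Atpaf2 of ATP synthase (-0.22) and Cox19 (-0.16). Of 14 tricarboxylic acid cycle genes 4 fell and none rose (median -0.07), among them Idh2 (-0.40), Fh1 (-0.18) and Ogdh (-0.11). Idh2, the mitochondrial NADP-linked isocitrate dehydrogenase, went from 56.8 ± 8.83 to 42.7 ± 5.69 CPM with a blocked adjusted p of 4.36e-05 and an unpaired one of 0.445 (limma).

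Of 8 genes for other routes of electrons into ubiquinone 3 fell, Chdh (-0.51), Etfb (-0.17) and Etfa (-0.11), and 1 rose. The one that rose, Etfdh, takes electrons from the protein encoded by Etfa and Etfb, and went from 244 ± 27.8 to 279 ± 31.0 CPM (log2 0.19, adjusted p 5.46e-04 blocked and 0.792 unpaired, limma). Of 13 ubiquinone synthesis genes Adck4 (-0.23) fell, and of 19 genes of mitochondrial gene expression Lrpprc (-0.10) fell, with list medians of -0.09 and 0.01. Of 19 cristae and nucleotide exchange genes 3 fell, Ucp2 (-0.52), Slc25a3 (-0.11) and Vdac1 (-0.10), and Vdac3 (0.14) rose. Of 11 tested regulators of mitochondrial biogenesis Esrra, a nuclear receptor that drives respiratory chain genes, fell from 79.5 ± 6.69 to 71.0 ± 6.89 CPM (log2 -0.16, adjusted p 0.00996 blocked and 0.799 unpaired, limma). Its coactivator gene Ppargc1a was at 6.73 ± 1.28 and 6.03 ± 2.08 CPM (log2 -0.16, adjusted p 0.382 blocked, limma).

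The authors' deposited table, whose model is not stated, gave 13 of the 75 members an adjusted p under 0.05, all lower, against 13% of the tested genes lower and 10.6% higher by the same table. They include 10 of the 11 members of the blocked fit, Ndufv1 being the exception, together with Ndufb5, Uqcrc1 and Atp5e.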

How the data were processed

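Per the labels, polyA RNA of 6 cultures was sequenced in pairs of reads; per the submitters' processing notes, reads were aligned with STAR 2.6.1a to mm10. The sources used here do not give the counting program, its annotation or its strandedness. The deposited table holds log2 CPM per library, to which the authors had added a small prior, and their own log2 fold change, likelihood ratio score, p-value and adjusted p-value. The shared floor of the log2 values (-3.35) was removed after conversion to CPM, and 100% of the resulting levels were whole multiples of 1 step per library (tolerance 1e-06 reads), so whole reads were recovered. The authors' scaling, 0.963 to 1.03 of the library totals, was kept. For 85.0% of genes the counted length equalled the gene span, so intron reads are included.

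A gene was tested with at least 10 reads in 3 libraries, after scaling to the median depth, and 15 reads in total. limma 3.58.1 (R 4.3.3) was run with a trended prior on log2(CPM + 1), two-sided, Benjamini-Hochberg adjusted over 12293 genes. As the unit is log2, no count test was run; limma-voom on recovered reads served as a second method. Library deviations from their group mean correlated at 0.784, 0.789 and 0.793 in same-numbered libraries and at -0.472 to -0.335 in others. As deviations are taken from the group mean, the negative values are largely set by the positive ones. The same-numbered correlations and the numbers in the sample titles are the ground for the pairing. Within groups, the chi-square between 2 libraries, per degree of freedom, was 23.4 to 41.7, so none was a duplicate. The scripts were tested on simulated data. Sequence matches used minimap2 2.31 and GENCODE mouse release M21.

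Members and lists were chosen with earlier results of these data known. Values in every library are given for members past either fit, for the 2 largest changes and the most abundant gene per counted kilobase of each complex; other list genes are named if past a fit. Cox4i1, Cycs, Nrf1, Gabpa and Ppargc1a, and library values of the members outside this rule, were added after their values were seen. Single values of some genes are not reported here.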

Additional observations from a re-analysis of the deposited data

How the results depend on the processing

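In the unpaired fit no member was called under any of its alternatives, and the replicate block called 11 lower and 0 higher. With the block, the number lower was 3 with no filter, 6 with median-of-ratios scaling, 7 with library total scaling and 7, 0 and 4 without replicates 1, 2 and 3; none was higher in any. Other values with the block were 10 to 13. The share of all genes called under each of these settings was not counted, so these counts do not set the members apart from other genes. The members' median log2 change, -0.068, lay between -0.101 and -0.023 when 1 library was left out, the last without TNF 3, where 48 of 75 members were below 0; it kept its sign in all alternatives, and 69 or 70 of 75 members were below 0 under both other scalings and both other pseudocounts. Only members that fell and each complex's 2 largest changes and most abundant gene per counted kilobase were followed singly. Of these, Atp5b changed sign in the unpaired fit without TNF 3 (0.012). Ndufa4l2 did so without Control 2 (0.097), Control 3 (0.136) or TNF 1 (0.359), and the cause was not tested. With 1 library left out these 2 genes ranged from -0.137 to 0.012 and from -0.972 to 0.359. A count of 0 reads allows a level of up to 0.124 to 0.166 CPM at these depths.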
